A study of Mus musculus with 4 samples.

Results

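The genes described here encode proteins of the cornified envelope and of the suprabasal layers of stratified epithelium. They were taken by name: every probe set with a single gene symbol that begins with Sprr or Lce, or that is 1 of a list of named epidermal genes. The choice was made because several of these genes read high on 1 of the 4 arrays, the one from cells given 5Z-7-oxozeaenol. This selected 52 of 34945 probe sets with a single symbol, or 43 of 18193 genes. Where a gene had several probe sets, the brightest over the 4 arrays stood for it. Levels on the oxozeaenol array are therefore given as a description.

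The RNA was from palatal mesenchymal cells, connective tissue cells that fill the palatal shelves, grown as primary cultures from embryos of age E14.0 and outbred wild-type genotype. All groups share this source, and treatment is the only difference that the labels give. With 1 array per group, a difference between cultures cannot be told apart from treatment. One culture was untreated. Another received TGF-beta2 for 120 minutes. A further culture was exposed to SB431542, an inhibitor of the TGF-beta type I receptor kinase, for 60 minutes and then to TGF-beta2 for 120 minutes, and the last was handled in the same way with 5Z-7-oxozeaenol (oxozeaenol below), an inhibitor of the Tak1 kinase. Each group held 1 array, so no difference below has a replicate check, no test was run, and precision is limited by the number of arrays. The sources used here state neither inhibitor doses nor the number of embryos behind a culture.

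In stratified epithelia, keratinocytes leave the basal layer and replace their plasma membrane with a sheet of protein, the cornified envelope. Small proline-rich (Sprr) proteins, late cornified envelope (Lce) proteins, involucrin and loricrin are joined into this sheet by transglutaminases, and many of their genes lie side by side in the epidermal differentiation complex. Many of these genes serve as markers of stratified epithelium. The palatal shelves carry an epithelium of basal cells under a flat outer layer, the periderm, so cultures of palatal mesenchyme can hold epithelial cells.

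The arrays had been scaled to a common level, and their median signals lay between 66.3 and 72.7. Collagen gene Col1a1 read between 10690 and 12926 and the mesenchymal transcription factor gene Prrx1 between 7983 and 11559, while Osr2, a regulator of palate growth, read at most 30.4. The macrophage receptor gene Csf1r read between 7343 and 8693 on the 4 arrays. A signal of 67.9, the median over probe sets of their mean signal, is called the median level below. Differences are on the scale of log2(signal + 21.7), which understates them for dim genes, and genes were counted when at least 2-fold apart on this scale.

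Signals of many members were low on 3 arrays and high on the oxozeaenol array. Of the 43 genes, 21 were at least 2-fold higher with oxozeaenol and TGF-beta2 than with TGF-beta2 alone, and 1 was lower. Over all genes 3.26% were higher and 2.86% lower by this measure. The members' median log2 difference was 0.96, and that of all genes was 0.05. Against the untreated array 24 members were higher (3.12% of all genes) and none lower (1.98%), and against the SB431542 array 23 were higher (2.94%) and none lower (2.65%). These 3 comparisons share the oxozeaenol array. That array was at least 2-fold above each of the other 3 for 19 of the 43 members, beside 0.863% of all genes. It held the highest signal for 31 of the 43 members, beside 32% of all genes. Because the members were picked for high signals on this array, none of these counts is evidence about it.

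Most of the higher genes read under the median level on the other arrays. For 14 of the 21 higher members all 3 other signals lay under the median level, and for 16 the TGF-beta2 signal did, so the size of their differences depends on the added 21.7. On the oxozeaenol array none of the 21 was under that level. A mean over the 4 arrays above the median level was reached by 28 members, 16 of them only because of the oxozeaenol array. The other 12 passed on the mean of the remaining arrays alone, and 3 of those 12 (Sprr1a, Lce3b and Sbsn) were among the higher genes. A set of 10 members stayed under the median level on all 4 arrays, among them Ivl, Flg, Klk5 and Lce1c.

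The Sprr proteins are short, proline-rich building blocks of the envelope. Sprr3, typical of the oral and oesophageal lining, read 39.1 untreated, 30.5 with TGF-beta2, 67.3 with SB431542 and 959 with oxozeaenol, an 18.8-fold difference between the oxozeaenol and TGF-beta2 arrays. Sprr2d read 43.4, 27.3, 17.8 and 666 in the same order, a log2 difference of 3.81. Sprr1a read 100.005, 71.4, 87.1 and 888, or 9.77-fold higher. In all 3 genes the oxozeaenol array stood alone, and the other 3 arrays lay within 2-fold of each other.

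Sprr2h read 20.8 untreated, 9.98 with TGF-beta2, 10.9 with SB431542 and 248 with oxozeaenol. Signals of Sprr2f were 12.3, 40.3, 23.2 and 310 in that order. Sprr1b read 1.92, 7.37, 1.51 and 137 and was far under the median level on the first 3 arrays. Sprr2k, at 52.9, 68.6, 60.9 and 140, was 0.84 higher on the log2 scale over TGF-beta2, short of 2-fold. Sprr2i and the pseudogene Sprr2j-ps stayed under the median level on all arrays. Of the 9 Sprr genes 6 were therefore higher, with a median log2 difference of 2.45.

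Sprr2 genes are near-copies of each other, and their probe sets may read more than 1 of them. The Sprr2h probe set carries the suffix that marks probes shared between transcripts, so which Sprr2 gene gave its signal is uncertain. In addition, 3 probe sets were annotated to several genes at once, with a member symbol among them, and were not counted as members. Of these, 1 read 37.3 untreated, 22.2 with TGF-beta2, 18.9 with SB431542 and 1952 with oxozeaenol. Another read 188, 177, 174 and 1941, and the last read at most 31.2. The first 2 thus had the pattern of Sprr2d, and their signals were not assigned to a gene.

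The Lce proteins, a later layer of envelope components, fell into separate groups. All 4 measured Lce3 genes were higher with oxozeaenol, with log2 differences over TGF-beta2 of 2.83 to 3.81, and none of the 11 Lce1 genes was, with differences of −0.39 to 0.96. Lce3c read 31.1 untreated, 31.9 with TGF-beta2, 30.3 with SB431542 and 729 with oxozeaenol. Signals of Lce3f were 83.1, 68.4, 30.4 and 983. Neither gene had another array within 2-fold of the oxozeaenol array.

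Lce3a read 33.1 untreated, 65.1 with TGF-beta2, 12.9 with SB431542 and 597 with oxozeaenol. Lce3b, at 116, 59.1, 172 and 574, was the Lce3 gene with the smallest gap between the oxozeaenol array and the next, 1.62 on the log2 scale over SB431542. Lce1h, by contrast, read 422, 363, 426 and 404, level across the arrays. Lce1i (203, 142, 280 and 235), Lce1a2 (106, 114, 138 and 151) and Lce1a1 (68.3, 102, 66.2 and 120) also lay above the median level with oxozeaenol and within 2-fold of the TGF-beta2 array. The 2-fold threshold fell between Sbsn at 1.12 and Lce1c at 0.96, and Lce1c was dim on all arrays, with signals of 1.85, 2.47, 1.68 and 25.2.

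This contrast was not complete in every comparison. Over SB431542, Lce1b (39.3 and 111) and Lce1c (1.68 and 25.2) were at least 2-fold higher with oxozeaenol. Of the 11 Lce1 genes, 5 had a mean over the 4 arrays above the median level. The probe sets of the Lce1 genes also limit the contrast. Those of Lce1h, Lce1i, Lce1d and Lce1a1 carry the suffix for probes that can bind other transcripts, as do those of Lce3b and Lce3c. For Lce1f the 2 probe sets did not behave alike. The brighter read 64.7 untreated, 20.8 with TGF-beta2, 47.8 with SB431542 and 40.4 with oxozeaenol, and the dimmer read 13.1, 11.5, 38.4 and 74.1, a log2 difference of 1.53 over TGF-beta2.

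The Sprr and Lce genes are neighbours in the genome, and the higher ones were not spread evenly along it. In the RefSeq annotation of GRCm38.p6, 52 genes lie from the first to the last Sprr or Lce gene on chromosome 3, of which 29 were measured here, 26 of them members. Of those 26, 11 were higher with oxozeaenol. They formed a run at each end: 6 Sprr genes from Sprr2d to Sprr1a, with Sprr2i, Sprr2j-ps and Sprr2k among them, and Lce3a, Lce3b, Lce3c, Lce3f and Crct1 at the other end, where Lce1m, dim on all arrays, is the last gene. Between these runs stood Ivl and 10 Lce1 genes, none of them higher. The 3 measured genes of the interval that are not members, Kprp (59.7 with TGF-beta2 and 127 with oxozeaenol), Smcp (3.50 and 4.65) and 2310050C09Rik (11.0 and 1.78), were within 2-fold. Genes of the interval with no probe set of their own were not analysed here.

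**Figure D1:**
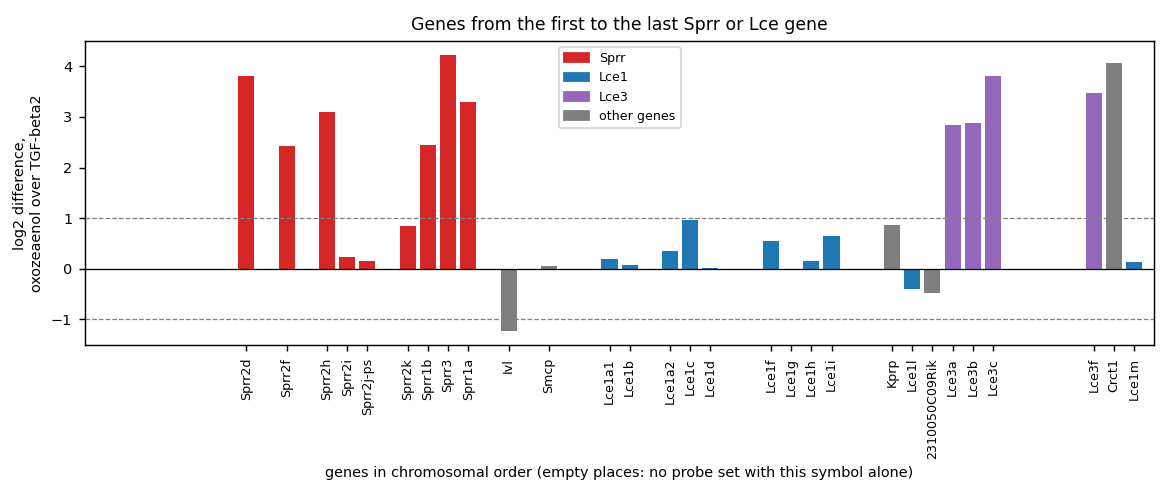
Log2 difference between the oxozeaenol and TGF-beta2 arrays (vertical axis) for the 29 measured genes from the first to the last Sprr or Lce gene, in chromosomal order (horizontal axis), with dashed lines at 2-fold. High bars stand at both ends, over Sprr genes and over Lce3 genes with Crct1, and the Lce1 genes between them lie within 2-fold.

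Promoters are shown for the 3 Sprr and 2 Lce genes with the largest differences, which were high together on 1 array, and for Krtdap. Each run is the 250 bases before the transcription start on the gene's strand, 5′ to 3′, from the RefSeq annotation of GRCm38.p6. Capitals mark 3 motifs: TATAAA, the TATA box, read on the gene's strand; TGANTCA, the binding consensus of AP-1 (Fos and Jun proteins), which reads the same on both strands; and ATTTGCAT, the octamer bound by POU factors, searched on both strands. The regions are chr3:92458721-92458970 (minus strand), chr3:92338890-92339139 (plus), chr3:92485882-92486131 (minus), chr3:92944236-92944485 (plus), chr3:92991967-92992216 (plus) and chr7:30787655-30787904 (plus).
Sprr3: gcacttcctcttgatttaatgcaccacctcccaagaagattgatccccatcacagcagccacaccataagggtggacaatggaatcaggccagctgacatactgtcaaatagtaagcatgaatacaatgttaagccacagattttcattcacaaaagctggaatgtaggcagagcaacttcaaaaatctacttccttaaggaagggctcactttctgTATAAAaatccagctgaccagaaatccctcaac
Sprr2d: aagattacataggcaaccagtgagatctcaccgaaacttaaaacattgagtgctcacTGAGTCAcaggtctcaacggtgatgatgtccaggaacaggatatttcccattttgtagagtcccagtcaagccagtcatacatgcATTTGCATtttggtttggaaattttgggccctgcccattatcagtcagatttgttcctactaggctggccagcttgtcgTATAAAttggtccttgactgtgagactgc
Sprr1a: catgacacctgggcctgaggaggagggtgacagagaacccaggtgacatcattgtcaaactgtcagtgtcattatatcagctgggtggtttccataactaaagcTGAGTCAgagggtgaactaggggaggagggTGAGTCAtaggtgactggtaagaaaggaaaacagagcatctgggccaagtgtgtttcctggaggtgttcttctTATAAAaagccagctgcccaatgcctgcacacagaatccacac
Lce3c: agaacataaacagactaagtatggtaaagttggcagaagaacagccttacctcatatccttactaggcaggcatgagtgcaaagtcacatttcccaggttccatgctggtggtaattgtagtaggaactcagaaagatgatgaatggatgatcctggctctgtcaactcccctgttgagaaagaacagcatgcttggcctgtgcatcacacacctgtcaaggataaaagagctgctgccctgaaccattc
Lce3f: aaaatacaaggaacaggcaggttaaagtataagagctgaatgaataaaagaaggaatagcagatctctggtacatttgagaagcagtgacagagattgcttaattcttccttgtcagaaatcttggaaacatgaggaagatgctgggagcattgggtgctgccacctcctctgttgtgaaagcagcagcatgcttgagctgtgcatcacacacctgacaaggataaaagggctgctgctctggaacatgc
Krtdap: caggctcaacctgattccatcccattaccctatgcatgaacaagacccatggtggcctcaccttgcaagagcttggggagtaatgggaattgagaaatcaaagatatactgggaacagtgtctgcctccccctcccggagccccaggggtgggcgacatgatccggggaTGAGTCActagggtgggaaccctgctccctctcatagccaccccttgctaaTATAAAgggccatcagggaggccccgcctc

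Sprr1a holds 2 matches to TGANTCA, which begin 146 and 116 bases before the start, and a TATA box that begins 43 bases before it. In Sprr2d the AP-1 match begins 193 bases before the start and an octamer 108 bases before it, and in Krtdap the AP-1 match begins 81 bases before it. Sprr3 holds a TATA box and no other match, and neither Lce3 window holds any of these motifs. A window was listed for 36 of the 43 members. A member was counted if any of its windows held the motif, while the share over all windows counts each window singly. The member counts and these shares are thus in unlike units, and a gene with several windows has more chances of a match. TGANTCA was present for 12 of the 36, 8 of 17 higher members and 4 of 19 others, and in 6.75% of all 32851 listed windows of this length. TATAAA was present for 15 of the 36, 8 of 17 higher and 7 of 19 others, against 7.59% of all windows. The octamer was present for 5, all Sprr2 genes (3 higher and 2 others), against 1.6%. Another motif, AACCNGTT, a Grainyhead-type site searched on both strands, was present for 1 member (Sfn) and in 1.79% of all windows. Some members carry related promoters, so they are not independent, and a match is not a measured binding site. The motifs were chosen after the sequences were seen, so these counts are a description.

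Other envelope precursors differed among themselves. Crct1, a cysteine-rich protein encoded beside the Lce genes, read 74.3 untreated, 18.0 with TGF-beta2, 62.4 with SB431542 and 647 with oxozeaenol. Its value with TGF-beta2 was the lowest, and the log2 difference was 4.07 over that array and 2.80 over untreated. Cornifelin (Cnfn) read 52.2, 63.8, 53.5 and 449, with 3 like values and 1 high one. Evpl, which encodes the plakin envoplakin, read 8.85, 12.9, 51.8 and 89.99 and was thus within 2-fold between the inhibitor arrays, and its partner periplakin (Ppl) read 99.0, 107, 58.5 and 132.

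Involucrin and filaggrin, classic products of the upper epidermis, were not among the higher genes. Ivl was the 1 member at least 2-fold lower with oxozeaenol, but its signals of 7.27 untreated, 40.3 with TGF-beta2, 13.4 with SB431542 and 4.62 with oxozeaenol were all under the median level, and its other probe set differed by −0.15. Flg read 11.3, 20.1, 21.5 and 17.8. Both genes were thus under the median level in every culture.

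The suprabasal genes Krtdap, Dmkn and Sbsn lie next to each other on chromosome 7, with no other protein-coding gene between them in the RefSeq table, and all 3 were higher. Krtdap, a secreted product of differentiating keratinocytes, read 12.1 untreated, 5.57 with TGF-beta2, 50.4 with SB431542 and 951 with oxozeaenol. Its log2 difference over TGF-beta2 was 5.16, but 6.39 with the added value at the 10th percentile of signals and 3.76 with it at the median, because 3 of its signals were under the median level. Dermokine (Dmkn) read 31.3, 44.5, 41.1 and 1019, a 15.7-fold difference. Suprabasin (Sbsn) read 463, 363, 516 and 812, 2.17-fold above TGF-beta2 but within 2-fold of the untreated and SB431542 arrays. Of its other 2 probe sets, 1 read 359, 394, 533 and 779, a log2 difference of 0.94 over TGF-beta2, short of 2-fold, and of 1.07 over untreated. The dim one read 4.50, 5.34, 34.1 and 48.3, with log2 differences of 1.37 and 1.42. Thus Krtdap and Dmkn stood apart on 1 array, and Sbsn by its brightest probe set was above the median level on all of them.

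Calml3, a calmodulin-like protein of epithelial cells, read 15.9 untreated, 26.6 with TGF-beta2, 48.3 with SB431542 and 283 with oxozeaenol. Sfn, the 14-3-3 protein of epithelial cells and a p53 target, did not follow the others. It read 69.5, 168, 54.7 and 167, so that the TGF-beta2 and oxozeaenol arrays were alike and both above the remaining pair.

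Of the enzymes that build or trim the envelope, Tgm1, the membrane-bound transglutaminase of keratinocytes, read 39.5 untreated, 59.1 with TGF-beta2, 25.4 with SB431542 and 96.5 with oxozeaenol, and Tgm3 read 72.1, 77.6, 88.6 and 79.6. Neither was 2-fold apart from TGF-beta2 on the oxozeaenol array. A dimmer probe set of Tgm3 read 30.3, 45.7, 66.8 and 87.0, a log2 difference of 0.69 over TGF-beta2 and 1.07 over untreated. Asprv1, an aspartic protease that processes filaggrin, read 5.96, 87.1, 15.8 and 557, 5.32-fold above TGF-beta2. The kallikreins Klk5 and Klk7, which cut the junctions between cornified cells, had log2 differences of 0.90 and 0.57 over TGF-beta2.

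All 3 surface proteins were higher. Ly6d, an anchored protein of keratinocytes, read 37.6 untreated, 68.9 with TGF-beta2, 38.9 with SB431542 and 726 with oxozeaenol. Aqp3, the water and glycerol channel of basal epidermis, read 48.4, 50.8, 58.9 and 327 by its brightest probe set, while its other 3 probe sets read at most 38.5 and had log2 differences of 0.15 to 0.53. Lypd3, an adhesion protein of suprabasal cells, read 10.2, 30.5, 27.7 and 185. For each of the 3 genes the arrays other than oxozeaenol lay within 2-fold of each other.

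Comparisons without the oxozeaenol array were not used to choose the members. TGF-beta2 alone over untreated left 4 members at least 2-fold higher (1.93% of all genes) and 2 lower (1.54%), with a median log2 difference of 0.09 for members and −0.02 for all genes. Higher were Klk7, from 8.0 to 109, Asprv1, from 5.96 to 87.1, Sfn, from 69.5 to 168, and Ivl, which was dim. Crct1 and Lce1f were lower, from 74.3 to 18.0 and from 64.7 to 20.8. Klk7 then read 122 with SB431542 and 172 with oxozeaenol, so the untreated array was the one that differed.

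SB431542 over TGF-beta2 gave 5 higher members (2.58% of all genes) and 4 lower (2.26%), with medians of −0.01 for members and 0.04 for all genes. Krtdap, Crct1, Lce3b, Evpl and Sprr2j-ps were higher, by log2 differences of 1.07 to 1.40, and except for Lce3b their signals lay under the median level on both arrays. Asprv1 (−1.54), Lce3a (−1.33), Sfn (−1.31) and Lce1b (−1.04, from 104 to 39.3) were lower. Against untreated, 3 members were higher with SB431542 (2.55%), namely Klk7 (2.28), Evpl (1.27) and Krtdap (1.10), and 2 lower (1.44%), Lce3f and Lce1b (both −1.01). The difference between the inhibitors' effects was not tested, as each has 1 array.

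**Figure D2:**
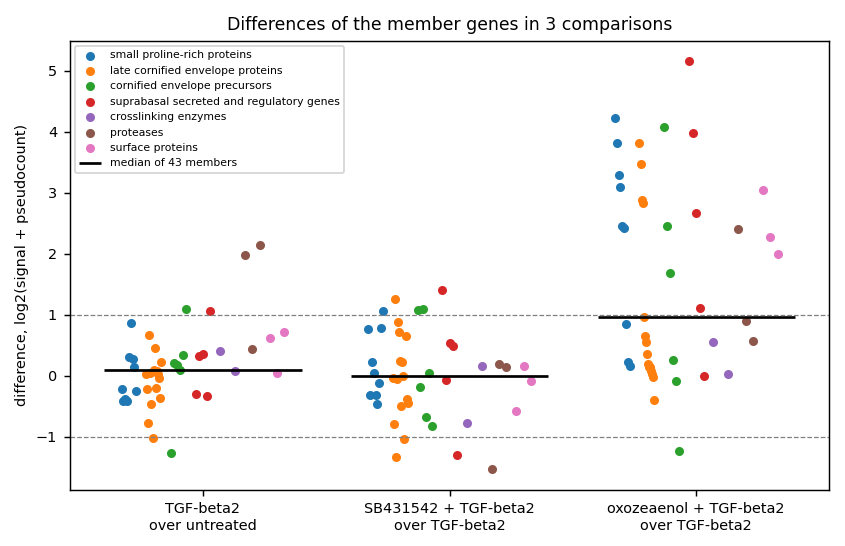
Log2 differences of the 43 member genes (vertical axis) in 3 comparisons of 1 array with another, coloured by role, with a black bar at the median of all 43 and dashed lines at 2-fold. The medians are 0.09, −0.01 and 0.96, and no member exceeds 2.14 in the other two comparisons shown.

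Other genes of cornification and the epidermal barrier were taken from a list outside the members. Of 50 measured, 18 were at least 2-fold higher with oxozeaenol than with TGF-beta2 alone, none was lower, and the median log2 difference was 0.50, beside 3.26% higher and a median of 0.05 over all genes. The largest were the keratins Krt13, of the oral lining, which read 28.0 untreated, 24.3 with TGF-beta2, 55.8 with SB431542 and 2023 with oxozeaenol, Krt6b (59.7, 56.0, 88.9 and 3060), Krt16 (81.8, 39.5, 60.5 and 886) and Krt4 (72.1, 45.3, 101 and 637). Loricrin (Lor), the main protein of the epidermal envelope, read 131, 120, 155 and 496. With SB431542 over TGF-beta2 1 of the 50 was higher and 2 were lower, beside 2.58% and 2.26% of all genes. For TGF-beta2 over untreated 1 was higher and none lower, beside 1.93% and 1.54%.

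Transcription factors of the epidermis formed a separate list. Of 18 measured, 3 were higher with oxozeaenol over TGF-beta2, namely Trp63, the regulator of stratified epithelia (37.2 and 128), Grhl1 (20.0 and 78.3) and Hopx (189 and 440). Grhl1 read 71.5 untreated, close to its oxozeaenol value. Klf4, which promotes barrier formation and is also made in mesenchyme, was lower, at 4771 and 2317. The median of the 18 was 0.50, as for the barrier genes. Over all genes 3.26% were higher and 2.86% lower in this comparison.

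Markers of other cells showed which lists moved on the same array. For all these lists, the shares over all genes were 3.26% higher and 2.86% lower with oxozeaenol over TGF-beta2. Of 13 measured basal keratinocyte markers 7 were higher with oxozeaenol over TGF-beta2 and none lower, with a median of 1.23. Krt14, a basal keratin, read 141 untreated, 295 with TGF-beta2, 275 with SB431542 and 2218 with oxozeaenol, its partner Krt5 read 195, 233, 258 and 1383, and Krt15 read 2.27, 2.48, 14.7 and 524. Summed over the list, the signal was 5112 untreated, 6261 with TGF-beta2, 5421 with SB431542 and 9636 with oxozeaenol. Much of this sum came from Itga6 (2410, 2344, 2169 and 1768) and Dst (1622, 2587, 1886 and 2285). Both were among the 6 markers within 2-fold of TGF-beta2 on the oxozeaenol array, as were Itga3, Lama3 and Lamb3. Itgb4, the integrin of basal cells, stayed under the median level on every array.

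Of 12 markers of simple epithelium and periderm 5 were higher (Rab25, Krt19, Esrp1, Cldn3 and Krt7) and none lower, with a median of 0.89. Their summed signal was 1808 untreated, 1477 with TGF-beta2, 1664 with SB431542 and 2763 with oxozeaenol. Epcam, a surface protein of most epithelia, read 369, 232, 331 and 366, so that it was no higher with oxozeaenol than untreated, and Cdh1, the epithelial cadherin, read 257, 230, 191 and 463. No detection calls were used, so low signals could not be called present or absent. Trp63 is counted both here among basal markers and among the transcription factors. In RNA from a whole culture, more epithelial cells and more of these transcripts per epithelial cell cannot be told apart.

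Lists for other cells did not move in this way. Of 12 palatal mesenchyme markers 1 (Shox2) was higher and 11 lay within 2-fold, with a median of 0.01 and summed signals between 97824 and 111136. All 12 macrophage markers lay within 2-fold (median −0.20), with sums of 82212 untreated, 78028 with TGF-beta2, 80165 with SB431542 and 68811 with oxozeaenol. The 10 endothelial markers lay within 2-fold (median 0.01) and summed to between 743 and 836. Of 10 skeletal muscle markers 3 were lower (Des, Chrna1 and Mylpf; median −0.26), with sums of 1557 to 1921, and of 8 melanocyte markers Sox10 was higher (median −0.13), with sums of 764 to 931. No marker was at 0, since every probe set has a positive signal. The part that a changed share of epithelial cells has in the members' values was not tested.

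**Figure D3:**
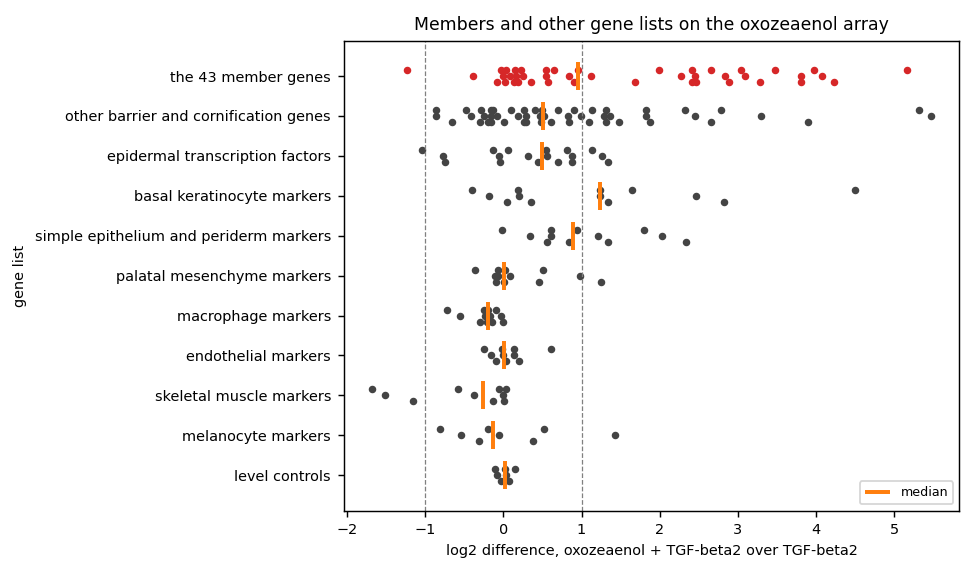
Log2 difference between the oxozeaenol and TGF-beta2 arrays (horizontal axis) for each gene of the members and of 10 other lists, with an orange bar at each list's median and dashed lines at 2-fold. Medians are 0.96 for the members, 1.23 for basal keratinocyte markers and 0.89 for simple epithelium and periderm markers, and between −0.26 and 0.03 for mesenchyme, macrophage, endothelial, muscle and melanocyte markers and level controls.

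Ranked over all 18193 genes by the difference between the oxozeaenol and TGF-beta2 arrays, 5 of the first 10 genes were members (Krtdap, Sprr3, Crct1, Dmkn and Sprr2d), as were 18 of the first 50. Between rank 50 and rank 200 there were 2 more, Lypd3 and Evpl. The members were picked on this array, so their ranks are a description.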

How the data were processed

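Transcripts were measured on Affymetrix 3′ expression arrays, 1 per culture, from 500 ng of total RNA each, per the labels' protocols. The authors deposited intensities on a linear scale for 45101 probe sets. Per the submitters' processing notes they used GCOS, software of the array's maker; the version, summary method and settings are unstated in what was used here. Trimmed of the lowest and highest 2% of values, each array averaged 500.003, so the deposited intensities were already scaled to a common level.

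After 64 control probe sets were left out, 34945 probe sets had 1 gene symbol in the platform annotation, 932 several and 9160 none, and those with 1 symbol were used (18193 genes). Intensities were converted to log2(value + 21.7), the pseudocount being the 25th percentile of all values, with pandas 2.3.3. Each gene was read from its brightest probe set. No filter on low values was applied in the counts over all members, because a filter keeps members through the array on which they are high. With 1 array per group genes at least 2-fold apart were counted and no test was run. Counting was tested on simulated data without noise, with changes planted only in genes above the median level. That check does not cover dim members. The members, gene lists and roles were chosen with earlier results of these data known, and the promoter motifs after the sequences were seen.

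Genes were named when at least 2-fold apart between oxozeaenol and TGF-beta2, or between 2 of the other arrays, and at or above the median level on at least 1 array, and when nearest the 2-fold threshold. From the other lists, up to 4 of the largest and the defining markers were named. Sbsn, Lce1 and Ivl details, loricrin, Klf4, the basal markers within 2-fold and values of members within 2-fold were added after their values were seen. Promoter sequences are from the RefSeq tables of GRCm38.p6, and all 43 members matched its gene table by symbol. Alternatives covered the pseudocount, filters, scaling and the choice of probe set.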

Additional observations from a re-analysis of the deposited data

How the results depend on the processing

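No paired analysis was possible because each group has 1 array, and for the same reason no array could be left out. Over the 6 comparisons, 89 differences in single members were at least 2-fold. None changed direction with the pseudocount, scaling or probe set choice, but this outcome was largely fixed in advance. The same pseudocount is added to both arrays, so changing it cannot reverse a direction. Median centring shifts all genes of a comparison alike, and only 6 members have several probe sets. With the pseudocount at the median 26 of the 89 fell below 2-fold, with the mean of all probe sets 6, with median centring 3, with quantile normalization 2, and 0 for a pseudocount at the 10th percentile.

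A filter on the mean of the untreated, TGF-beta2 and SB431542 arrays kept 12 members. The number higher with oxozeaenol was then 3 over TGF-beta2, 4 over untreated and 4 over SB431542, beside 176, 144 and 143 of all 11679 genes kept (1.51%, 1.23% and 1.22%), with median log2 differences of 0.30 over TGF-beta2 and 0.55 over untreated. For SB431542 over TGF-beta2 this filter left 1 higher and 2 lower, beside 0.651% and 1.22% of the genes kept. SB431542 over untreated had 1 and 1 (0.514% and 0.394%), and TGF-beta2 over untreated 2 and 0 (0.728% and 0.377%). With the filter on the mean of all 4 arrays at the median level, which keeps members through the oxozeaenol array, medians were 2.44 over TGF-beta2, 2.69 over untreated and 2.38 over SB431542. Higher members for SB431542 over TGF-beta2 were then 3 (0.706% of the 11756 genes kept), and lower ones 1 for TGF-beta2 over untreated (0.425%). At 2 times that level, with 16 members and 9999 genes kept, the medians were 3.17, 3.33 and 3.54. Then 13 members were higher over untreated (1.24% of the genes kept) and 13 over SB431542 (1.28%). This filter, too, keeps members through the oxozeaenol array. SB431542 over TGF-beta2 then had 3 higher and 2 lower, beside 0.47% and 1.08% of the genes kept. SB431542 over untreated had 1 and 1 (0.2% and 0.22%), and TGF-beta2 over untreated 1 and 1 (0.53% and 0.28%).

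With the pseudocount at the median, SB431542 over TGF-beta2 had 0 higher and 0 lower, beside 0.253% and 0.506% of all genes. SB431542 over untreated had 1 and 0 (0.176% and 0.104%), and TGF-beta2 over untreated 2 and 0 (0.319% and 0.148%). With the 10th percentile, SB431542 over TGF-beta2 had 8 and 8 (1124 and 973 of all genes, 6.18% and 5.35%). SB431542 over untreated had 8 and 4 (6.36% and 4.04%). The median over untreated with oxozeaenol was 2.05, and 1 member was lower with oxozeaenol over SB431542 (5.96% of all genes). The 1 member lower with oxozeaenol over TGF-beta2, Ivl, became 0 with the pseudocount at the median, with each filter and with the mean of all probe sets. That mean also left 1 member lower for TGF-beta2 over untreated (1.12% of all genes). Filters change which genes are counted; the cause of the other shifts was not tested. Members whose other signals lie under the median level have no firm fold, because signal over background is small there.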
